A study of Drosophila melanogaster with 2 samples.

Results

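The 8 genes described here were Trl, psq and lola, which encode or resemble GAGA factor, and the Polycomb group genes ph-p, ph-d, Pc, Psc and Su(z)2. They were picked by name, with their kay peaks in these data already known, out of 13945 protein-coding genes on the nuclear chromosome arms of Drosophila melanogaster. For each gene, every peak was taken whose summit lay in the gene or within 1 kb of one of its annotated transcription starts. The ranks and signals below therefore describe the genes, and their counts are no evidence that kay favours this class of gene.

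The study measured binding of kay, the fly Fos protein, by chromatin immunoprecipitation with sequencing (ChIP-seq). The animals were whole adult male flies of unknown age from a transgenic strain, kay-GFP, that stably expresses kay with GFP at the C-terminal end, and the tagged protein was pulled down with an anti-GFP antibody. There was 1 group of 2 biological replicates, numbered 1 and 3 by the labels, and no control library was analysed here. In whole flies, strong binding in few cells and weak binding in many cells cannot be told apart, and binding of a tagged transgene product need not equal that of the untagged protein.

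GAGA factor, the product of Trl, is a BTB-domain zinc-finger protein that binds GA-repeat DNA, keeps promoters open and was first known for its part in homeotic gene expression. The psq protein also carries a BTB domain and binds GAGA repeats, and lola encodes a large family of BTB zinc-finger isoforms that act in axon guidance and cell fate. The Polycomb group proteins keep developmental genes silent: Pc binds methylated histone tails, while the 2 ph proteins and Psc are, like Pc, parts of Polycomb repressive complex 1 (PRC1), in which Su(z)2 can stand in for Psc. kay pairs with Jra, the fly Jun protein, as the transcription factor AP-1, whose best known site is TGACTCA on one strand and TGAGTCA on the other.

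The authors deposited 4 peak lists on the genome build dm6: 1 for each replicate, 1 called on both libraries pooled, and 1 named optimal, which was derived from the pooled list. By its name the pooled list holds peaks and background for the step that yields the optimal list, so a summit in it alone is not shown to be a bound site, and the same caution applies to the many summits of the replicate lists whose q was above 0.05. They held 2060 peaks for replicate 1, 13835 for replicate 3, 4350 for the pooled libraries and 199 in the optimal list, of which 34 were mitochondrial. Each peak carried the authors' signal, on a scale of its own in each list, so signals were used only to rank peaks within a list. The median nuclear peak had a signal of 42.3 in the pooled list, 25.9 in replicate 1 and 18.7 in replicate 3, and the lowest nuclear peak of the optimal list had 114.2.

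Summits of the optimal list lay at 2 of the 8 genes, Trl and ph-p, against 1.22% of all protein-coding genes. The pooled list reached 6 of the 8, all but Psc and Su(z)2, with 30 summits, against 15.2% of all protein-coding genes. Replicate 1 placed 7 summits at 4 of the 8, psq, ph-p, ph-d and Pc, against 9.52%. Replicate 3 placed 69 summits at all 8, against 34.7%. Nothing is read from these differences, because the genes were chosen with the peaks known and because long genes catch more summits. Of all 2471 protein-coding genes between 5 and 20 kb long, the range that holds every gene here except psq and lola, 28.9% had a pooled summit and 57.8% a replicate 3 summit. Among the 328 genes between 40 and 80 kb, the range of psq and lola, 52.4% had a pooled and 88.7% a replicate 3 summit. An optimal summit was held by 2.51% of the shorter and 5.79% of the longer genes. A replicate 1 summit was held by 19.1% and 40.5%, in the same order.

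**Figure D1:**
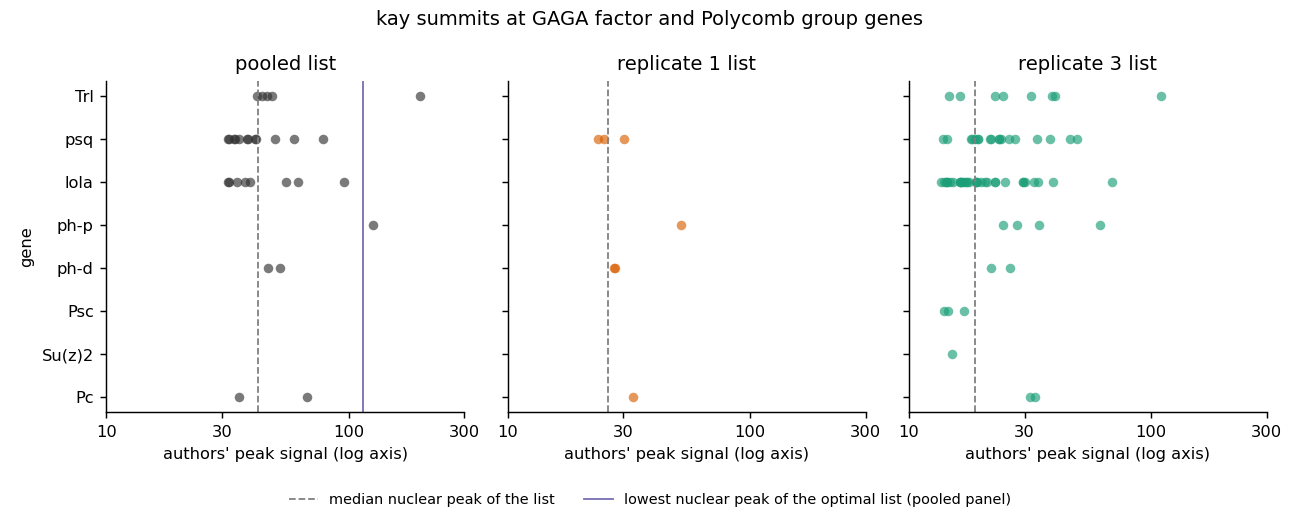
Authors' peak signal (log axis) of every summit at each of the 8 genes, in the pooled list, the replicate 1 list and the replicate 3 list, each on its own scale; each point is 1 summit. The dashed line is the median nuclear peak of that list and the solid line the lowest nuclear peak of the optimal list, 114.2; Trl at 197.1 and ph-p at 125.7 lie to its right, and Psc and Su(z)2 have points in replicate 3 alone.

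Trl held the highest of these peaks. The gene (FBgn0013263, chromosome 3L from 14747929 to 14761049, minus strand, 13.1 kb) had an optimal peak from 14759429 to 14759848, with its summit at 14759639 in an intron, 1410 bp downstream of the outermost start. Its signal of 197.1 was rank 74 of all 199 optimal peaks and rank 40 of the 165 nuclear ones. In replicate 3 the same place had a signal of 109.3, rank 75 of 13835, with its summit at 14759637. Replicate 1 had no peak there, nor anywhere else at Trl, so of the 2 replicates only replicate 3 had the peak called on its own. A missing call does not show that replicate 1 had no reads there. The Trl peak shared the missing call with 15 other nuclear optimal peaks. In all, 16 of 165 had no overlapping replicate 1 peak. Their signals ran from 116.1 to 288.9, and 2 of them were higher than that at Trl. The sequence within 100 bp of the Trl summit is shown because this was the strongest peak of the set and held neither an AP-1 site nor a GA repeat. It is from the plus strand of dm6, in lower case throughout because no searched string and no string 1 letter off the AP-1 site was found in it:
Trl intron summit, chr3L:14759539-14759739: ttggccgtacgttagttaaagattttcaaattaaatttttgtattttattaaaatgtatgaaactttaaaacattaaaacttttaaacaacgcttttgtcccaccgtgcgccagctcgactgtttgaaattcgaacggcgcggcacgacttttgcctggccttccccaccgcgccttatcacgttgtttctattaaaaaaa

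The nearest TGACTCA to that summit was 4416 bp away and outside the gene, since Trl held no copy of it. The nearest GAGAGAG, a run of the letters that GAGA factor binds, was 653 bp away, although Trl held 5 such tracts. The other 4 pooled summits at Trl were weak, at 42 to 48.1, close to the median of the list. The highest of them, at rank 1636, lay 228 bp upstream of the outermost start, inside the neighbouring gene Tsen34. One was in the 3′ UTR (signal 46, rank 1806). The others were in an intron 1075 bp below the nearest start (43.9, rank 1987) and 361 bp below a start (42, rank 2219). At the 3′ UTR summit and both of these others the gene CG42507 is also annotated. Replicate 3 had 8 summits at Trl, from 14.6 to 109.3; the highest after the intron peak had 40, rank 1016.

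The 2 other GAGA-type genes are both long and lie on chromosome 2R, 14596 bp apart. lola (FBgn0283521, from 10481894 to 10543291, minus strand, 61.4 kb) had its highest summit in an intron at 10540343, 1327 bp below the nearest of its 4 starts. The pooled signal there was 95.9, rank 299, with a −log10 q of 1.38, and replicate 3 had 69, rank 232, with a −log10 q of 2.19. Replicate 1 had no peak at lola at all. Further pooled summits followed in introns, at 61.6 (rank 898) 3681 bp and at 55.1 (rank 1177) 5949 bp below the nearest start. The remaining 5 pooled summits lay below the median of the list, down to 31.8. In replicate 3 lola had 31 summits, the most of the 8 genes, with a lowest signal of 13.6, a median of 18.9 and a highest of 69, and 16 of the 31 were above the median nuclear peak of that list. Of the 31, 19 were in introns, 7 in 3′ UTRs, 1 of which was that of pre-lola-G, a gene annotated within lola, and 5 at promoters, within 500 bp of an annotated start of any gene.

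psq (FBgn0263102, from 10557888 to 10617280, plus strand, 59.4 kb) was the one GAGA-type gene with peaks in replicate 1. Its highest summit lay 306 bp upstream of the outermost start, at 10557582. The signal there was 78.7 in the pooled list, rank 473, 30.1 in replicate 1, rank 738, and 46 in replicate 3, rank 705, and the summits of the replicates were within 1 bp of each other. A neighbouring summit 385 bp below the same start had 59.3 in the pooled list (rank 992), and the overlapping replicate 3 peak had 49.2 (rank 578), the higher of the pair in that list, with no replicate 1 peak. The third was deep in an intron, 16456 bp from the nearest start, with 49.6 in the pooled list (rank 1527) and 38.2 in replicate 3 (rank 1153). The other 9 of the 12 pooled summits were under the median of the list. Replicate 1 had 2 further summits in psq, with signals of 24.9 (rank 1161) and 23.5 (rank 1333), both below its median. Replicate 3 had 18, from 13.8 to 49.2, of which 13 were in introns.

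The 2 genes that encode the ph proteins lie in tandem on the X chromosome, 2923 bp apart, and are near copies of each other. The flies were male, with a single X, and whether this alters the ranks of these genes beside autosomal ones was not tested. ph-p (FBgn0004861, from 2126210 to 2138371, minus strand, 12.2 kb) had the other optimal peak of the set, from 2137680 to 2138099, with the summit at 2137890, 481 bp below the outermost start in the 5′ UTR. Its optimal signal was 125.7, rank 159 of 199 and 125 of 165 nuclear peaks, while the lowest nuclear optimal peak had 114.2. Unlike the Trl peak it was called in both replicates, with 51.7 in replicate 1 (rank 197, −log10 q of 1.23) and 61.3 in replicate 3 (rank 314, −log10 q of 1.48). The 2 summits were 80 bp apart. It was also the highest replicate 1 peak at any of the 8 genes. Replicate 3 had 3 further summits at ph-p, the lowest at 24.5. The nearest TGACTCA was 7913 bp from the optimal summit, outside the gene, and the nearest GAGAGAG 376 bp.

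ph-d (FBgn0004860, from 2115727 to 2123286, minus strand, 7.56 kb) had 2 pooled summits, both upstream of its outermost start and both found in each replicate. The first, 18 bp upstream of the start, had 46.4 in the pooled list (rank 1773), 27.7 in replicate 1 (rank 892) and 21.8 in replicate 3 (rank 4871). The second, 877 bp upstream between genes, had 52.1 (rank 1372), 27.4 (rank 915) and 26.2 (rank 3103). The summits of the replicates were 32 and 16 bp apart. Parts of these peaks match the other gene of the pair, and the ph-p peak and the ph-d peak 877 bp upstream match each other. The ph-p peak had 141 bp that were 84.4% identical to 2124262 to 2124399, across the end of that ph-d peak. That ph-d peak had 114 bp that were 84.2% identical to 2137954 to 2138067, inside the ph-p peak. The ph-d promoter peak had 340 bp that were 91.2% identical to ph-p, outside the ph-p peak. No source used here says whether reads that align to both genes were kept, so how signal is divided between ph-p and ph-d is uncertain. At Trl, psq and Pc no pooled peak had such a copy elsewhere in the genome. The window of the upstream ph-d summit is shown as an example of a place called in both libraries without either motif; it holds runs of TTA repeats (dm6, plus strand, in lower case because no searched string was found):
ph-d upstream summit, chrX:2124063-2124263: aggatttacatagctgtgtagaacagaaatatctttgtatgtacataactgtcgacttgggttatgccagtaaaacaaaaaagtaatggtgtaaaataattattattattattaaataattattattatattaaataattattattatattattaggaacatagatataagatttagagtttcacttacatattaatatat

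Pc (FBgn0003042, chromosome 3L from 21306138 to 21318020, minus strand, 11.9 kb) had 2 pooled summits. The higher was in the 3′ UTR of its main transcripts, at 21315903, 2117 bp below its single start, with 67.1 in the pooled list (rank 717), 33 in replicate 1 (rank 593) and 31.6 in replicate 3 (rank 1931). The replicate summits were 26 bp apart. The other lay 118 bp upstream of the start, at 21318138, with 35.1 in the pooled list (rank 3455) and 33.1 in replicate 3 (rank 1703), where it was slightly above the 3′ UTR summit, and it had no replicate 1 peak. This promoter peak was weak, with a −log10 q of 0.08 in the pooled list. Its window held a string that differs from the AP-1 site in 1 letter. Such a string was near 9 of the 30 pooled summits here and 34.1% of all nuclear pooled summits, so its presence says little. The string, in capitals, was centred 6 bp from the summit (dm6, plus strand):
Pc promoter summit, chr3L:21318038-21318238: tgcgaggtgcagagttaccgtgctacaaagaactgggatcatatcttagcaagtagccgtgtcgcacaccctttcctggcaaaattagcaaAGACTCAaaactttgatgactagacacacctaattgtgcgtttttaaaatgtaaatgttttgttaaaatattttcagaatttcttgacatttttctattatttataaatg

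Pc also had the strongest peak just beyond the limit used to choose summits. A pooled peak with its summit at 21304506, signal 106.2 and rank 232, lay 1632 bp past the 3' end of Pc in the gene CG11309, and replicate 1 had a peak of 44.3 (rank 281) there. It was not counted at Pc. Just inside the limit was the ph-d summit 877 bp from the start.

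The last pair, Psc and Su(z)2, had summits in replicate 3 alone. Both lie on chromosome 2R, Psc (FBgn0005624) from 12965997 to 12980994 on the minus strand and Su(z)2 (FBgn0265623) from 12996501 to 13007911 on the plus strand. Neither had a summit in the optimal, pooled or replicate 1 list. In replicate 3, Psc had signals of 16.9 (rank 8659, intron), 14.5 (rank 12174, 5′ UTR) and 14 (rank 13033, coding exon), and Su(z)2 had 15.1 (rank 11203, 3′ UTR). All 4 lay below that list's median nuclear peak of 18.7. Among these weak summits was the one closest to an AP-1 site in any replicate list: the 5′ UTR summit of Psc was 122 bp from a TGACTCA.

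**Figure D2:**
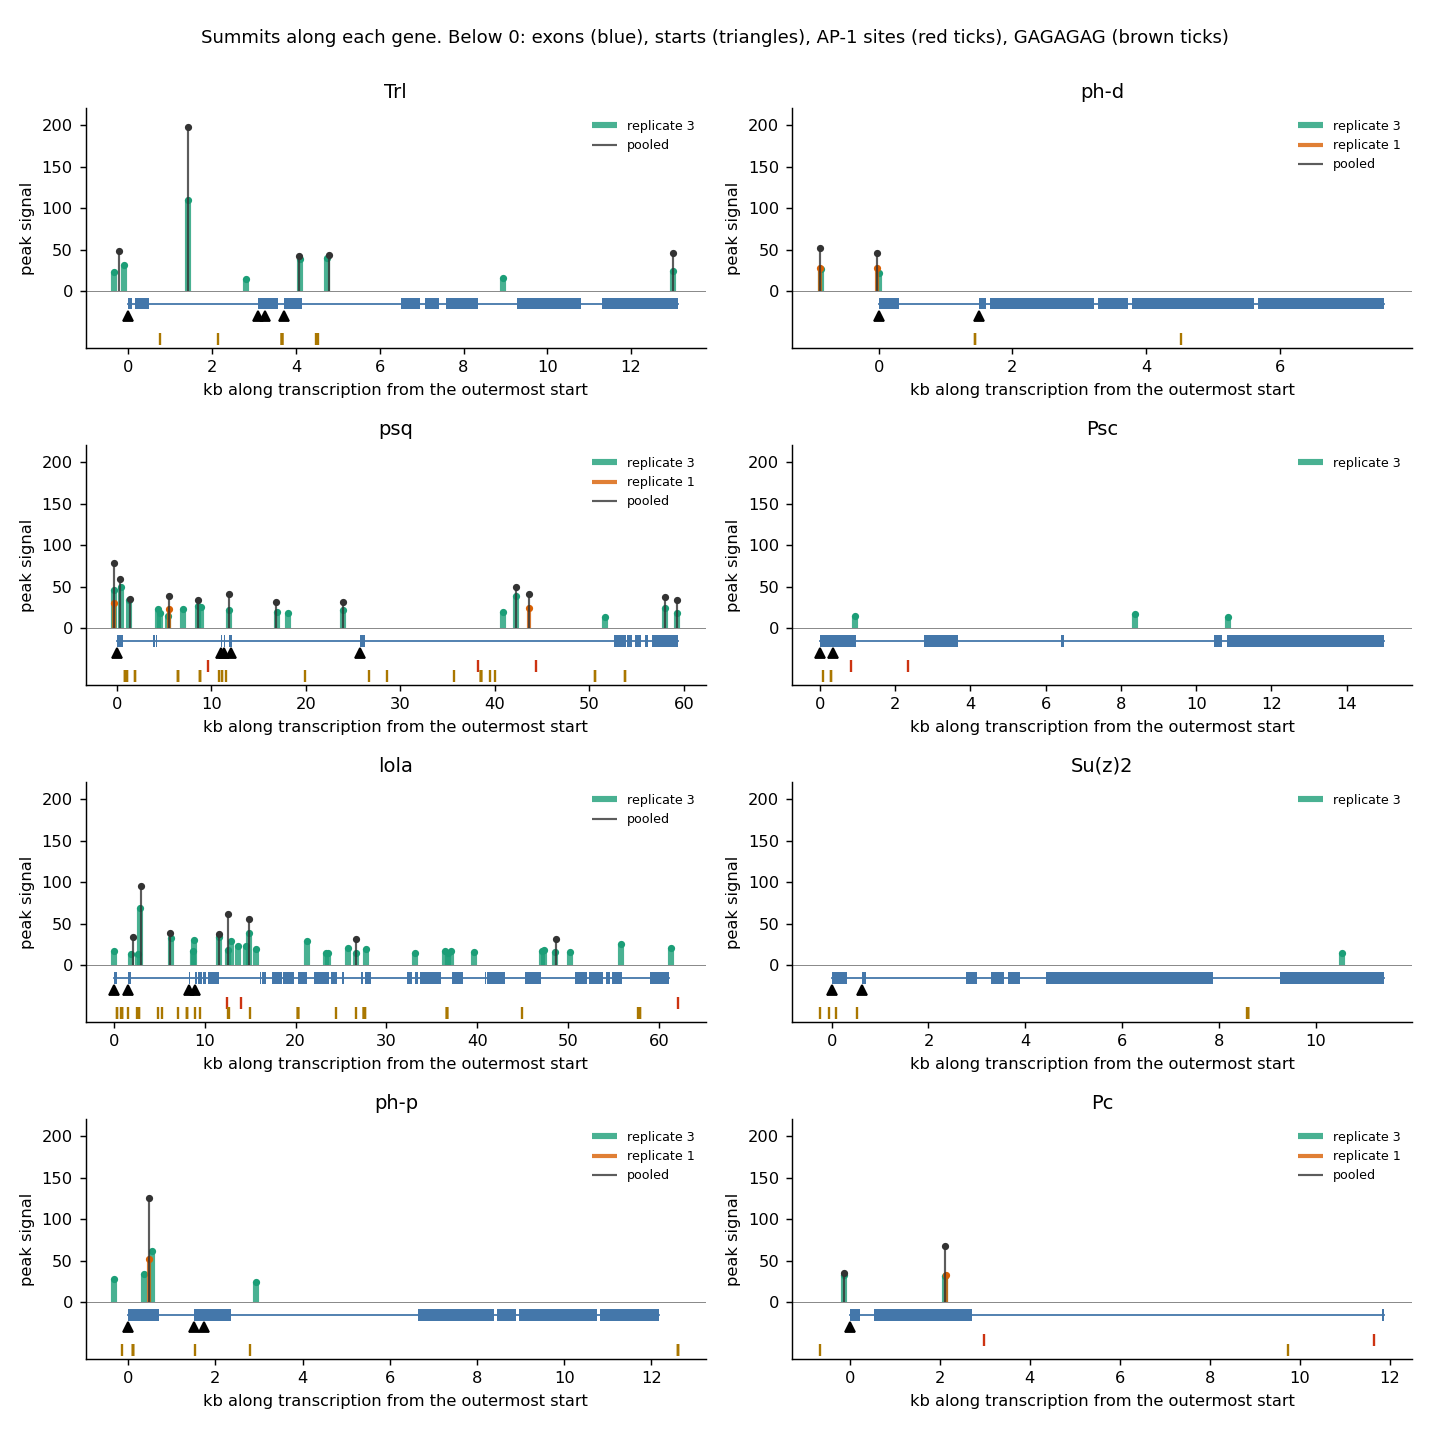
Summits along each of the 8 genes, by distance in kb along transcription from the outermost start, with the authors' signal as height (each list on its own scale) in the pooled, replicate 1 and replicate 3 lists; exons are blue boxes, starts triangles, AP-1 sites red ticks and GAGAGAG brown ticks. The highest stem is the Trl intron summit at 197.1, the ph-p stem of 125.7 is near its start, and lola and psq carry many low stems along their length.

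Counted as places, with overlapping peaks of the pooled and replicate lists joined, the 8 genes held 58 intervals. A q of at most 0.05 was reached by 3 of the 30 pooled summits. In replicate 1 it was reached by 0 of the 7 and in replicate 3 by 3 of the 69. Over all nuclear peaks it was reached by 294 of 4317, 149 of 2024 and 447 of 13804, in the same order. Most peaks of these lists are thus weak, which is not particular to the 8 genes. Of the 58 intervals, whatever their q, 6 were found in both replicates: 2 at psq, 2 at ph-d, 1 at ph-p and 1 at Pc. The ph-p place and the upstream ph-d place hold matching sequence, so whether they are separate is uncertain. One psq place was found in replicate 1 alone and 51 places in replicate 3 alone. Replicate 1 overlapped 7 of the 30 pooled peaks at the 8 genes, which is 23.3%, against 43.6% of all nuclear pooled peaks. Replicate 3 overlapped 29 of the 30, against 94.1% of all nuclear pooled peaks. Trl and lola held 5 and 8 of the 30 pooled peaks and had no peak in replicate 1. Read depth was not given for either library, so a missing replicate 1 peak cannot be told apart from too few reads.

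Most summits at these genes were not at starts. Of the 30 pooled summits 14 were in introns, 10 at promoters, 5 in 3′ UTRs and 1 between genes. The promoter count includes 2 in lola that lay near the starts of noncoding RNA genes inside it, snoRNA:lola-c and asRNA:CR45135. In replicate 3, 37 of 69 were in introns and 17 at promoters. The long genes psq and lola held 7 and 5 of the 14 pooled intron summits. In replicate 3 they held 13 and 19 of the 37. No such shares are given here for all nuclear peaks, so no preference for introns over promoters is read from these counts. The GAGA-type genes carried 25 of the 30 pooled summits and 57 of the 69 in replicate 3. A long gene has more room for summits, so those inside each gene were also set per 10 kb of gene. In the pooled list Trl had 3.05 per 10 kb, psq 1.85, lola 1.3, Pc 0.842 and ph-p 0.822, and ph-d, Psc and Su(z)2 had 0, while all protein-coding genes together had 0.364. In replicate 3, lola led with 5.05 and Trl followed with 4.57, against 1.15 in all protein-coding genes, and Su(z)2 with 0.876 and Pc with 0.842 were below that value. Replicate 1 gave another order, with Pc at 0.842, ph-p at 0.822, psq at 0.337 and the other 5 genes at 0, against 0.168. That order rests on 1 summit inside Pc, 1 inside ph-p and 2 inside psq. The 2 replicate 1 summits at ph-d lay upstream of the gene and were not counted. The order of the genes by density thus differed between the libraries, but on too few replicate 1 summits to weigh.

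**Figure D3:**
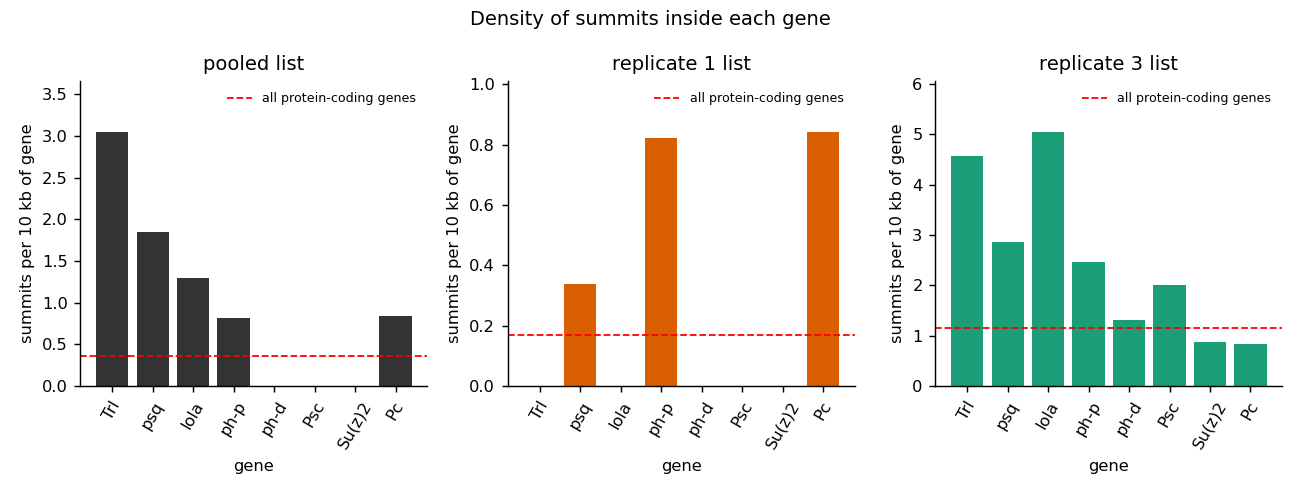
Summits inside each gene per 10 kb of gene in the pooled, replicate 1 and replicate 3 lists (bars, axes from 0 and different in each panel), with all protein-coding genes together as a dashed line. Trl is at 3.05 in the pooled list and lola at 5.05 in replicate 3, and both are at 0 in replicate 1.

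No summit at the 8 genes had an AP-1 site within 100 bp, in any list. The count was 0 of 2 in the optimal list, 0 of 30 in the pooled list (95% Wilson interval up to 11.4%), 0 of 7 in replicate 1 (up to 35.4%) and 0 of 69 in replicate 3 (up to 5.27%). All nuclear summits together had TGACTCA within that distance in 23%, 5.58%, 7.36% and 3.49% of cases, in the same order. The pooled interval contains the value for all pooled summits. These intervals cover counting error only and treat the summits of 1 gene as independent, which they need not be. The genes were also chosen with their peaks known, so nothing is concluded from the intervals. The related string TGACGTCA, a site for other leucine-zipper pairs, was also found at none of the summits at the 8 genes. All nuclear summits together had it in 3.64%, 0.695%, 0.741% and 0.637% of cases, in the same order. With a string that rare, its absence at so few summits says little about these genes. The 8 genes held 9 copies of TGACTCA in 191926 bp, or 0.469 per 10 kb against 0.858 in all protein-coding genes, and Trl, ph-p, ph-d and Su(z)2 held none. A string 1 letter off TGACTCA was near 9 of the 30 pooled summits, 30%, against 34.1% of all nuclear pooled summits. The smallest distance from a pooled summit to TGACTCA was 200 bp, at the second summit of lola.

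GA repeats were present in all 8 genes but were near summits in lola alone. Together the genes held 60 GAGAGAG tracts, 3.13 per 10 kb against 1.42 in all protein-coding genes, with 24 in lola, 19 in psq, 5 in Trl, 4 in Su(z)2, 3 in ph-p, 2 each in ph-d and Psc and 1 in Pc. A pooled summit with such a tract within 100 bp occurred in 3 of 30 cases, 10% (95% Wilson interval 3.46 to 25.6%), against 6.12% of all nuclear pooled summits. All 3 were in lola. The summit of signal 61.6 had 2 tracts, the nearest 55 bp away, that of 55.1 had 1 at 72 bp, and a weak one of 32 (rank 4246) had one 1 bp from its summit. In replicate 3 the count was 4 of 69, 5.8% (2.28 to 14%), again all in lola, against 4.13%. The intervals hold the values of all summits, cover counting error only, and treat the summits of 1 gene as independent, which they need not be. In the optimal list 15.2% of nuclear summits had GAGAGAG, and neither the Trl nor the ph-p summit did.

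The wider lists held 72 further genes: Polycomb and Trithorax group genes, Polycomb targets, and GAGA-associated, BTB and zinc-finger genes. Of these, 1 had an optimal summit (1.39%), 23 a pooled (31.9%), 13 a replicate 1 (18.1%) and 42 a replicate 3 summit (58.3%). All protein-coding genes had 1.22%, 15.2%, 9.52% and 34.7%, in the same order. Many of these 72 genes are long, and no test was made. The pooled counts below stand beside that 15.2%, and nothing is read from them. Neither of 2 further PRC1 genes, Sce and Scm, had a summit in any list. Another list held 8 genes of the other repressive complex, PRC2, which methylates histones, and of its partners. Of these, 1 had a pooled summit, the 119.8 kb gene jing (57.3, rank 1067), 30875 bp from a start. Of 7 genes for proteins that recruit Polycomb complexes to DNA, 1 had one, pho (38.5, rank 2741, in an intron). The highest among other Polycomb genes was Kdm2, a histone demethylase gene, with an intron summit of 106.3 in the pooled list (rank 229), 1384 bp from a start. In replicate 1 its highest summit had 50.1 (rank 212), 1347 bp from a start, while in replicate 3 the highest was another intron summit, 4436 bp from a start, with 108.1 (rank 77). Next in that list was corto, with 37.9 (rank 2859). Of 11 genes of GAGA-associated, BTB and zinc-finger proteins, with a median length of 26.6 kb, 6 had a pooled summit. The highest were at mod(mdg4), which encodes BTB isoforms of insulator complexes (73.3, rank 576), and ttk, a BTB zinc-finger repressor gene (59.5, rank 987). Of 18 Trithorax group genes, which act against Polycomb, 7 had a pooled summit. Their optimal peak was at tna, with 154.8 at rank 109 in an intron 1527 bp from its start, and tna had 64.1 in replicate 1 (rank 126) and 90.5 in replicate 3 (rank 121). Of 18 targets of Polycomb silencing, 5 had a pooled summit, the highest at ci, the transcription factor gene of the Hedgehog pathway (70.3, rank 646), while the homeotic gene Dfd had 38.1 (rank 2837).

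**Figure D4:**
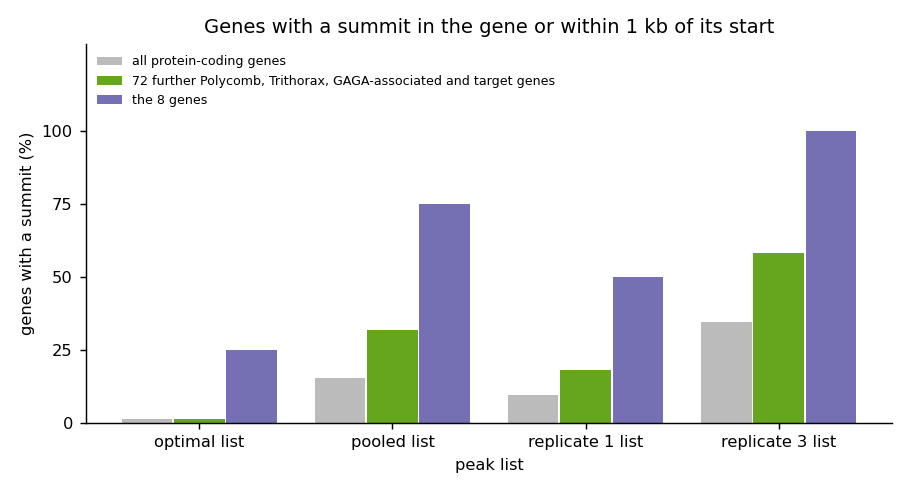
Percent of genes with a summit in the gene or within 1 kb of a start, in each of the 4 lists, for all protein-coding genes, for the 72 further genes and for the 8 genes, which were chosen with their peaks known. In the optimal list the 72 genes (1.39%) and all genes (1.22%) are close, and in replicate 3 they are at 58.3% and 34.7%; gene length differs between the sets.

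The genes whose best ranks were most like those of Trl across the pooled, replicate 1 and replicate 3 lists were Atat and aay, which share 1 peak, and Oseg6. Likeness was the summed difference of log10 rank over the 3 lists, with a gene without a summit set just past the end of the list, and it was 0.182 for Atat and aay and 0.199 for Oseg6. The shared peak of Atat, a tubulin acetyltransferase gene, and aay, a phosphoserine phosphatase gene, was at rank 59 in the pooled list and 61 in replicate 3, and the Oseg6 peak at 94 and 92. None of them had a replicate 1 peak, which the measure itself favours, since Trl had none in that list.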

How the data were processed

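Peak lists of kay-GFP ChIP-seq in 2 biological replicates of whole adult male flies were used as deposited on dm6. Per the labels, fragments after sonication were 200 to 800 bp long. Each deposited list gives the authors' peak signal, the authors' −log10 q-value and a summit offset; p and score columns were filled with -1 and 0 throughout and not used. According to the deposited file listing, 1 control file served both replicate lists and the pooled list. No source used here gives the aligner, peak caller, settings, irreproducible discovery rate threshold or read depth. The 4 lists on dm3 were not used here.

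Summits were joined, in Python 3.11.15 with pandas 2.3.3, to Ensembl release 115 annotation and the RefSeq Release 6 genome sequence, whose coordinates are those of dm6. A gene had a summit if it lay in the gene or within 1000 bp of a start. A promoter was within 500 bp of a start. Motifs were searched on both strands, as the AP-1 site TGACTCA, the GA repeat GAGAGAG and the string TGACGTCA; overlapping runs of GAGAGAG were joined into 1 tract. Shares carry 95% Wilson intervals (scipy 1.17.1). Copies of peaks were sought with blastn 2.17.0 at an e-value of 1e-05. The scripts were tested on simulated data. Printed sequences are the RefSeq genome's.

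With 1 group and genes chosen by their peaks, no test was run. The genes and the wider lists were chosen with earlier results of these data known. Named genes were the 8 genes with their best summits, from each wider list those with an optimal summit or else up to 2 with the best pooled rank, and the 3 most like Trl. Sce and Scm were named after their values were seen. Of the wider lists, 3 symbols were not matched to the annotation. Alternatives varied the peak list, the distance to a start, the motif and its window, and left out each replicate.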

Additional observations from a re-analysis of the deposited data

How the results depend on the processing

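Of 69 alternative values, 46 kept to the value reported and 23 moved. Of the 46, 16 were the count of optimal summits with TGACTCA and 15 that with GAGAGAG, each staying at 0. Those counts rested on at most 2 summits, so they say little about how stable the results are. The 2 genes and 2 summits of the optimal list moved in 6 of 11 alternatives each. Both counts became 1 when only summits within 1 kb of a start were taken (ph-p remained, since the Trl summit is farther from its starts), and 1 when only the upper part of the nuclear optimal peaks was kept (Trl remained). Ranking 1 replicate in place of the optimal list also gave 1 to 1: Trl without replicate 1 and ph-p without replicate 3, with or without mitochondrial peaks. In the pooled list, peaks with q at or below 0.05 left 3 genes with 3 summits, at Trl, lola and ph-p, and 0 summits with GAGAGAG. Summits within 1 kb of a start numbered 10, of which 0 had GAGAGAG. The 3 pooled summits with GAGAGAG became 1 within 50 bp, 5 within 200 bp, 5 over the whole peak and 7 for the shorter GAGAG. Alternatives for the pooled list were added after seeing the data. The 0 pooled summits with TGACTCA became 1 over the whole peak and 1 for TGANTCA. No paired analysis was possible because both libraries belong to 1 group. Depth is unknown, so the lack of replicate 1 peaks at Trl and lola cannot be weighed.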

Other observations

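Some summits lay between neighbouring genes of the set but over 1 kb from their starts, and so were counted at neither gene. Between lola and psq the pooled list had 2 such summits, replicate 1 had 1 and replicate 3 had 4. One of them, 4984 bp upstream of psq, had a pooled signal of 65.6 (rank 768), above all but the highest psq summit. Between Psc and Su(z)2, which are 15506 bp apart, the pooled list had 2 such summits, replicate 1 had 0 and replicate 3 had 4. The pooled summit 4173 bp upstream of Psc had a signal of 46.7 (rank 1747). Between ph-d and ph-p, replicate 3 had 1 summit outside the limits of both genes. On the other side of lola a pooled summit of 67.4 (rank 708) lay in the gene whd.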
